A study of Mus musculus with 18 samples.

Results

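The comparison described here is the effect of losing EglN1 on gene expression in skeletal muscle, averaged over a slow and a mostly fast muscle of the same mice. It used 12 of the 18 arrays of the series: soleus and quadriceps of 6 mice, with 1 array per muscle. The log2 values of both muscles of a mouse were averaged first, so that each gene had 6 values, 3 from knockout (KO) and 3 from wild-type (WT) mice. The KO mice carried a floxed EglN1 gene together with a Cre recombinase active in skeletal muscle, and Cre was induced with tamoxifen for 3 days before the tissues were taken. The WT mice carried the same recombinase and received the same tamoxifen, without the floxed gene. Both groups therefore share Cre and tamoxifen, were of the C57BL/6 background after backcrossing and ate chow freely. The age and sex of the mice, the promoter that drives Cre, the deleted part of the gene and the number of backcross generations were not stated in the labels. The series' title speaks of smooth muscle, whereas every muscle array is labelled as a skeletal muscle. The arrays of 1 mouse were joined by numbers in the sample labels, which were read as animal numbers. The remaining 6 arrays, from hearts of mice given an EglN inhibitor or vehicle, were not used.

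EglN1, also called PHD2, is a prolyl hydroxylase that needs oxygen. In normal oxygen it hydroxylates the alpha chains of the hypoxia-inducible factors (HIF), and the von Hippel-Lindau protein then marks them for destruction. When the enzyme is absent or oxygen is short, HIF accumulates, pairs with ARNT and binds short DNA motifs near genes of glycolysis, vessel growth, red cell formation and mitochondrial removal. In skeletal muscle the pathway is known for its part in the adaptation of fuel use and capillaries to exercise and altitude.

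Array medians ranged from 6.68 to 6.741 (log2), and replicate arrays of 1 muscle and genotype correlated at r from 0.991 to 0.9945 across probe sets. Arrays have no read depth, and the number of mice, 3 per group, limits the precision: the median standard error (SE) of a difference was 0.06 log2 units. The defining markers of skeletal muscle (9 genes, Acta1 and Ckm among them) averaged 13.32 to 13.37 in every mouse, the highest of the marker sets. Markers of endothelium, smooth muscle, fibroblasts and leukocytes were above the filter level of 6.19 in all mice and overlapped between groups. Markers of fat cells (Adipoq, Plin1, Cidec) averaged 7.96 to 8.35 in KO and 7.53 to 8.09 in WT mice. A fit with this fat cell level as a covariate, added after the data were seen, called 3 genes, and its values stand beside each group of genes below. The level is partly tied to genotype in these 6 mice, so that fit has less power to call a gene. All 44 genes called without the covariate kept their direction with it. Whether fat cells account for any change was not tested. In whole muscle, a change in the share of a cell type and a change of RNA per cell cannot be told apart.

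Egln1 itself was lower in the KO mice, but not past the threshold. The KO mice read 10.95, 10.87 and 11.02 and the WT mice 11.12, 11.08 and 11.15 on the log2 scale. All 3 KO values lay below all 3 WT values. The difference was -0.17 (SE 0.05, 95% interval -0.29 to -0.05, limma adjusted p = 0.322). Under the alternative settings it lay between -0.21 and -0.12 and never passed (adjusted p from 0.071 to 0.846). Since it is not known which exons were removed and the probes are summarised over the transcript, these values are a limited check of the genotype.

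Of 13319 genes tested, 44 changed between KO and WT mice, which is 0.33% of those tested. A call means an adjusted p (Benjamini-Hochberg) under 0.05 in limma. Of these, 26 were higher in KO (0.195% of tested genes) and 18 lower (0.135%). The changes were mostly small: 4 genes changed at least 2-fold, 18 by 0.5 to 1 and 22 by less than 0.5 log2 units, down to 0.31. The animal means of KO and WT did not overlap for any of the 44, a pattern that 15.9% of all tested genes showed (6.3% with KO higher and 9.56% with KO lower). At an unadjusted p under 0.05, 1385 genes passed (10.4%). The number of calls changed when 1 mouse was left out: it was 13, 40 and 93 without KO animals 1, 2 and 3, and 3, 27 and 13 without WT animals 1, 2 and 3. Each of these fits also has fewer animals, which by itself lowers the power to call a gene. Of the 44, Gdpd3, Abhd1 and Trappc2l were called in all 20 alternatives, and the other 41 lost the call in at least 1. The direction of all 44 stayed the same in all 20, but many of these settings could not turn it. A change of filter, variance prior or block leaves the difference itself unchanged. Leaving out 1 animal cannot turn a direction where the KO and WT means do not overlap. The kept direction is therefore little support. The plot of animal values shows the leading genes by size, and the account below takes the called genes by role.

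**Figure D1:**
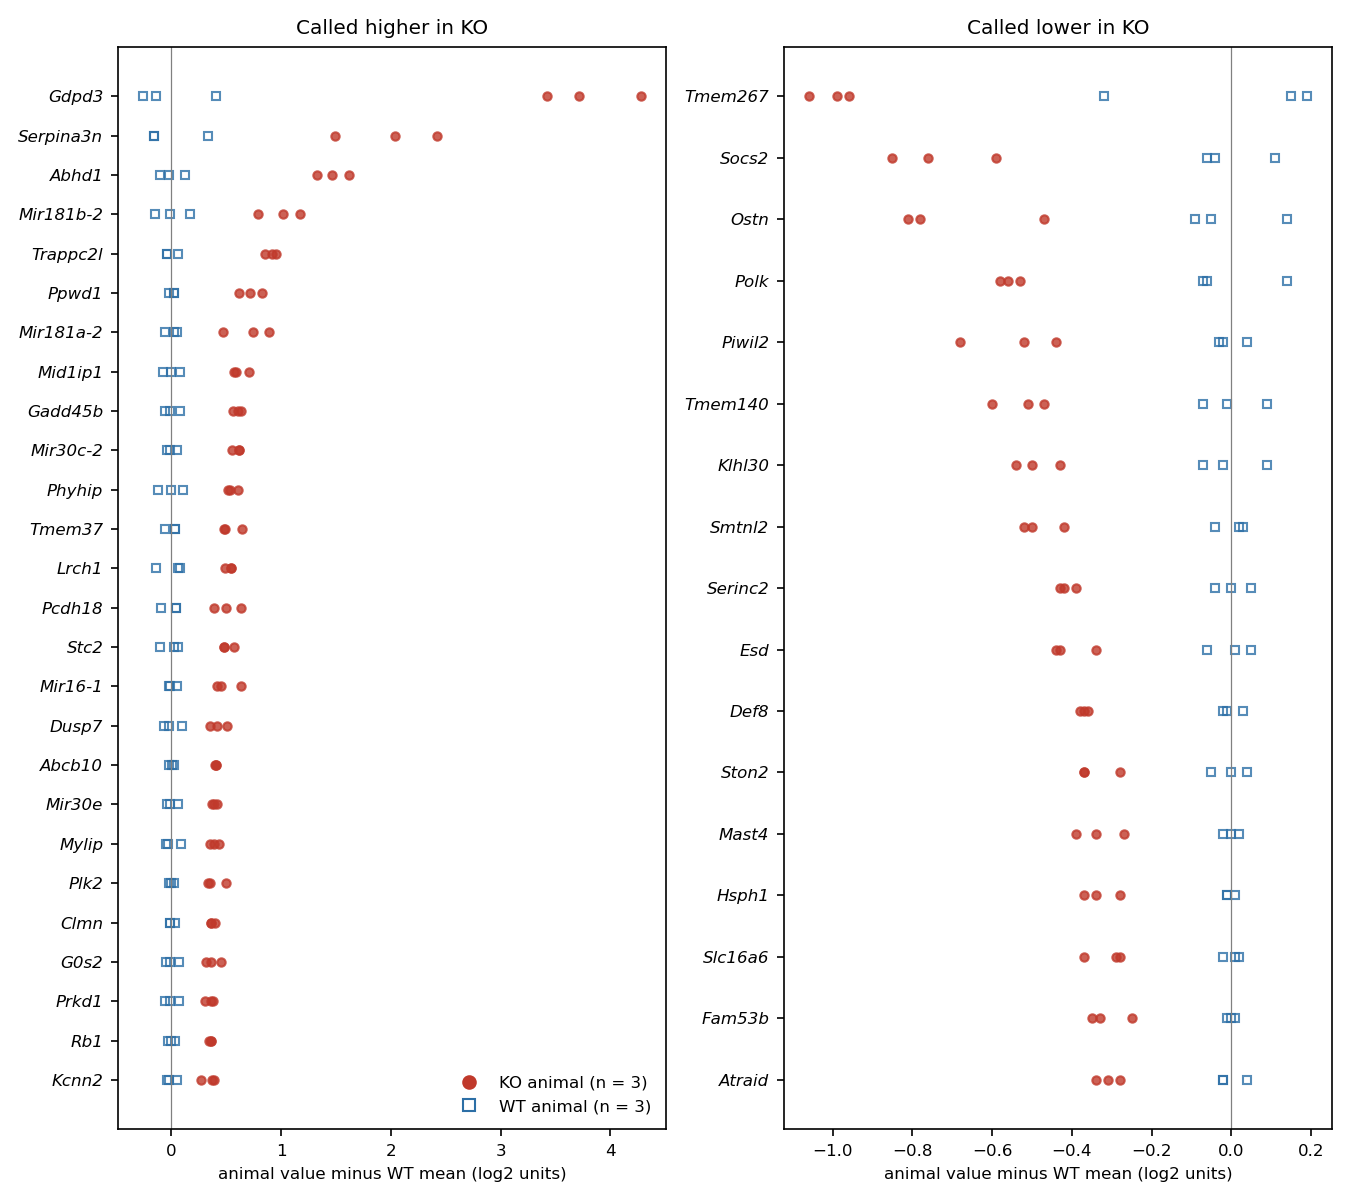
Log2 value of each animal (mean of soleus and quadriceps) minus the mean of the 3 WT animals for 43 called genes, 26 higher on the left and 17 lower on the right; filled circles are KO and open squares WT animals. KO and WT animals do not overlap for any gene drawn, and Gdpd3 (difference 3.80), Serpina3n (1.98) and Abhd1 (1.47) stand farthest from WT.

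Genes of hydrolase families, and of regulators or partners of lipid enzymes, held the largest change. Gdpd3 encodes a glycerophosphodiesterase that releases lysophosphatidic acid from lysophospholipids. In soleus its arrays stood at 9.04, 9.90 and 9.33 in KO, against 5.15, 5.09 and 6.00 in WT. In quadriceps they stood at 8.64, 9.50 and 8.93 in KO, against 5.17, 5.47 and 5.66 in WT. Every KO array was well above every WT array, and KO animal 2 was highest in both muscles. The animal means were 9.22 ± 0.44 in KO and 5.42 ± 0.35 in WT (SD, n = 3), and the fitted difference was 3.80 (SE 0.23, limma adjusted p = 0.00058). The WT values lie below the filter level of 6.19, which is a chosen cut-off and no detection limit. Counted only from that level the rise is 3.03, which is how far the KO mean lies above it.

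Abhd1, which has the fold of alpha/beta hydrolases, read 8.34, 8.50 and 8.21 in KO and 6.86, 6.78 and 7.00 in WT mice. Its rise of 1.47 was many times its SE of 0.08 (limma adjusted p = 0.000534). Mid1ip1, a partner of acetyl-CoA carboxylase in fatty acid synthesis, rose by 0.63 (KO 8.97, 9.09 and 8.95; WT 8.30, 8.38 and 8.46; adjusted p = 0.00964). G0s2, an inhibitor of the triglyceride lipase of fat stores, rose by 0.37 (adjusted p = 0.0405), and Phyhip, named for its binding to phytanoyl-CoA hydroxylase, by 0.56 (adjusted p = 0.0151). Esd, an esterase that also hydrolyses S-formylglutathione, was the 1 called gene here that fell, by 0.41 (adjusted p = 0.0192). Gdpd3 and Abhd1 kept their calls without any 1 animal. G0s2, Phyhip and Esd were lost without KO animal 1 (adjusted p from 0.087 to 0.162) or WT animal 3 (0.0891 to 0.116), and these with Mid1ip1 without WT animal 1 (0.0553 to 0.256). G0s2 was also lost without KO animal 2 (0.0537), KO animal 3 (0.0504) and WT animal 2 (0.13). With the fat cell marker level as a covariate, Gdpd3 and Abhd1 were called and the other 4 were not (adjusted p from 0.137 to 0.435).

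None of the related phosphodiesterases was called. Of 6 tested members of the glycerophosphodiesterase list, Gdpd3 was the 1 called, and the rest lay between -0.13 (Gdpd5) and 0.13 (Gdpd1). Counting Gdpd3, 2 passed an unadjusted p under 0.05 in limma, beside 10.4% of all genes. In 2, again with Gdpd3, the animal means did not overlap, beside 15.9% of all genes.

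Among secreted proteins, Serpina3n and Stc2 rose and Ostn fell. Serpina3n, a serine protease inhibitor released in acute-phase states, read 9.69, 10.07 and 9.14 in KO and 7.49, 7.98 and 7.49 in WT mice. The lowest KO mouse was more than 1 log2 unit above the highest WT mouse. The rise was 1.98 (SE 0.22, limma adjusted p = 0.014). It was the 1 called of 8 tested genes in the acute phase and inflammation list, where haptoglobin (Hp) stood at 0.49 (adjusted p = 0.522) and lipocalin 2 (Lcn2) at 0.34 (adjusted p = 0.565), both named after their values were seen. Stc2, a glycoprotein hormone of the stanniocalcin family, read 8.24, 8.15 and 8.15 in KO and 7.69, 7.73 and 7.57 in WT mice, a rise of 0.51 (SE 0.06, adjusted p = 0.0132). Ostn encodes musclin, a peptide that muscle releases. Its values were 7.72, 7.75 and 8.06 in KO and 8.48, 8.44 and 8.67 in WT mice, a fall of 0.69 on the log2 scale (SE 0.10, adjusted p = 0.04). All 3 calls were lost without KO animal 1 (adjusted p from 0.0716 to 0.132), WT animal 1 (0.0885 to 0.209) or WT animal 3 (0.0555 to 0.153), and with the fat cell covariate (0.177 to 0.458). Ostn was also lost without KO animal 2 (0.0828) and WT animal 2 (0.0946).

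Genes of vesicle traffic and membrane transport went both ways. Trappc2l, a subunit of the complexes that tether transport vesicles at the Golgi, read 10.65, 10.62 and 10.55 in KO and 9.76, 9.66 and 9.66 in WT mice. With SDs of 0.05 in both groups, its rise of 0.91 was among the most even between mice (SE 0.05, limma adjusted p = 0.000534). Abcb10, a mitochondrial transporter needed for haem synthesis, rose from 7.91 ± 0.02 to 8.31 ± 0.01 (SD, n = 3; difference 0.40, adjusted p = 0.0132). It was the 1 called of 22 tested iron and haem genes. The 4 members that fell were Serinc2, of the serine incorporator family, by 0.42 (adjusted p = 0.0132), Def8, which acts on the position of lysosomes, by 0.37 (0.0151), Ston2, an endocytic adaptor, by 0.33 (0.0452), and Slc16a6, a monocarboxylate transporter, by 0.31 (0.0405). Trappc2l kept its call without any 1 animal and with the fat cell covariate. The other 5 were lost without KO animal 1 (adjusted p from 0.0716 to 0.206), WT animal 1 (0.0885 to 0.254) or WT animal 3 (0.0555 to 0.184) and with that covariate (0.212 to 0.483). Ston2 and Slc16a6 were lost without KO animal 2 (0.081 to 0.104), and these with Serinc2 and Def8 without WT animal 2 (0.0529 to 0.13).

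Signalling and growth control genes made up 9 of the calls. Gadd45b, a stress-induced protein that activates the p38 kinase cascade, read 8.80, 8.82 and 8.75 in KO and 8.18, 8.27 and 8.13 in WT mice (rise 0.60, SE 0.05, limma adjusted p = 0.00631). Dusp7, a phosphatase of the ERK kinases, rose by 0.42, and Mylip, the ubiquitin ligase that degrades the LDL receptor, by 0.39. Plk2, a polo-like kinase, also rose by 0.39, while Prkd1, protein kinase D1, and Rb1, the retinoblastoma protein that holds cells out of the cycle, each rose by 0.35 (adjusted p of these 5 genes from 0.0167 to 0.0405). Socs2, which damps growth hormone signals through STAT5, read 9.81, 9.64 and 9.55 in KO and 10.51, 10.34 and 10.36 in WT mice. Its fall of 0.74 was the second largest of the lower genes reported here (SE 0.08, adjusted p = 0.0132). Mast4, a microtubule-associated kinase, fell by 0.33 (adjusted p = 0.0405), and Fam53b, which acts in Wnt signalling, by 0.31 (0.0432). None of the 9 was called without WT animal 1 (adjusted p from 0.0654 to 0.257) or with the fat cell covariate (0.137 to 0.496). Without KO animal 1, Gadd45b and Socs2 were called and 7 were not (0.087 to 0.206). The same held without WT animal 2 (0.0588 to 0.123), and without WT animal 3 Gadd45b alone was called (the others 0.0584 to 0.184). Without KO animal 2 and without KO animal 3, 4 of the 9 were lost each time (0.0537 to 0.104 and 0.0504 to 0.0605).

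A further 10 called genes encode proteins of membranes, adhesion and the cytoskeleton. Tmem267, a transmembrane protein, read 9.27, 9.20 and 9.30 in KO and 10.45, 10.41 and 9.94 in WT mice. Its fall of 1.01 was the largest of the lower genes (SE 0.12, limma adjusted p = 0.0166), and WT animal 3 lay nearest to the KO mice. Tmem140 fell by 0.53 (adjusted p = 0.0132), Klhl30, a kelch-like protein, by 0.49 (0.0151), Smtnl2, a smoothelin-like protein, by 0.48 (0.0128) and Atraid, a transmembrane factor of bone cell differentiation, by 0.31 (0.0405). Rises were 0.54 for Tmem37, a relative of calcium channel subunits (adjusted p = 0.0132), 0.52 for Lrch1, a leucine-rich repeat protein (0.0173), 0.51 for the protocadherin Pcdh18 (0.0309), 0.37 for Clmn, a calponin-domain membrane protein (0.0151), and 0.34 for Kcnn2, a calcium-activated potassium channel (0.0456). None of the 10 was called without KO animal 1 (adjusted p from 0.0551 to 0.132), without WT animal 1 (0.0885 to 0.261) or with the fat cell covariate (0.137 to 0.318). Of these, 6 were lost without WT animal 2 (0.0588 to 0.135) and 6 without WT animal 3 (0.0685 to 0.184), while Atraid and Kcnn2 were lost without KO animal 2 (0.0932 to 0.104) and KO animal 3 (0.0605 to 0.0627).

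Another 4 called genes act on RNA, DNA or protein folding. Ppwd1, a prolyl isomerase found in spliceosomes, rose from 8.01, 7.97 and 8.01 in WT to 8.71, 8.61 and 8.82 in KO mice (0.72, SE 0.06, limma adjusted p = 0.00446). Polk, a DNA polymerase that copies past lesions, fell by 0.56 (KO 7.46, 7.41 and 7.43; WT 8.13, 7.93 and 7.92; adjusted p = 0.014). Piwil2, an Argonaute protein of the germline piRNA pathway, read 6.08, 5.84 and 6.00 in KO and 6.49, 6.56 and 6.50 in WT mice (adjusted p = 0.0152). Its KO mean lay below the filter level of 6.19, so the fall is at least 0.33. Hsph1, a large heat shock protein that serves HSP70, fell by 0.32 (KO 9.23, 9.14 and 9.17; WT 9.50, 9.50 and 9.52; adjusted p = 0.0367). Without WT animal 1 none of these was called (adjusted p from 0.0553 to 0.209), and without WT animal 3 Ppwd1 alone (the others 0.0555 to 0.168). Polk and Hsph1 were lost without KO animal 1 (0.0716 to 0.0871), Piwil2 and Hsph1 without WT animal 2 (0.0766 to 0.102), and Hsph1 without KO animal 2 (0.0848) or KO animal 3 (0.0504). With the fat cell covariate all 4 were lost (0.0634 to 0.314).

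Probe sets of 101 microRNA genes were tested, and 5 of them were called (4.95%, beside 0.33% of all genes), all of them higher in KO. Of the tested microRNA genes, 17 passed an unadjusted p under 0.05, beside 10.4% of all genes. The median difference over all 101 was 0.010, beside -0.008 over all genes. A microRNA silences messenger RNAs mainly through its seed, the bases 2 to 8 of the mature strand. The 5′ arms are shown because they fall into families: in each sequence, from RefSeq on GRCm38.p6, the seed is in capitals, and miR-30c shares it with miR-30e and miR-181a with miR-181b.
miR-30c-5p (Mir30c-2, chr1:23291714-23291736, + strand): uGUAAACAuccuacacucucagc
miR-30e-5p (Mir30e, chr4:120772660-120772681, - strand): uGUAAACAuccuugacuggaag
miR-181a-5p (Mir181a-2, chr2:38852741-38852763, + strand): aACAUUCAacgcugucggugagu
miR-181b-5p (Mir181b-2, chr2:38853845-38853868, + strand): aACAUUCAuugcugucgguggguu
miR-16-5p (Mir16-1, chr14:61631936-61631957, - strand): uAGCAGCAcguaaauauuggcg

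Targets were made from total RNA by random priming, so a probe set at a microRNA gene can read the precursor or a longer transcript over it. The values were therefore not taken as levels of the mature strands. Mir210, a microRNA gene known to be induced by HIF and named after its value was seen, was at 0.08 (95% interval -0.06 to 0.22, limma adjusted p = 0.736). Mir181b-2 read 8.21, 8.06 and 7.83 in KO and 7.03, 6.89 and 7.21 in WT mice, a rise of 0.99 (SE 0.11, limma adjusted p = 0.0132). Mir181a-2, its neighbour on chromosome 2, read 7.27, 7.12 and 6.85 against 6.32, 6.43 and 6.40, a rise of 0.70 (SE 0.10, adjusted p = 0.0334). KO animal 1 was highest and KO animal 3 lowest for both members of this pair. Mir30c-2 rose by 0.59 (SE 0.05, adjusted p = 0.00446) and Mir30e by 0.39 (SE 0.05, adjusted p = 0.0152), with KO values from 7.07 to 7.14 and from 6.98 to 7.03. Mir16-1 read 6.64, 6.46 and 6.43 in KO and 6.00, 5.99 and 6.06 in WT mice. Its fitted rise was 0.49 (SE 0.06, limma adjusted p = 0.02). The WT values lie below the filter level, and counted only from that level the rise is 0.32. All 5 calls were lost without WT animal 1 (adjusted p from 0.0553 to 0.226) and with the fat cell covariate (0.104 to 0.313). Mir181b-2 and Mir30c-2 kept theirs without KO animal 1 (the others 0.0716 to 0.087) and without WT animal 3 (0.0891 to 0.145). Mir181a-2 was lost without KO animal 2 (0.0731), and Mir16-1 and Mir181a-2 without WT animal 2 (0.0946 to 0.0976).

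The oxygen-sensing genes themselves showed no called change. Of 15 tested members, 0 were called by limma, with a list median of 0.011. An unadjusted p under 0.05 was reached by 3, beside 10.4% of all genes. In 5 the animal means did not overlap, beside 15.9% of all genes. The list holds Egln1, its relatives, the factors they act on and the ubiquitin ligase of von Hippel-Lindau. Egln2 (PHD1) stood at -0.13 (95% interval -0.24 to -0.03), with all KO mice (9.73, 9.76 and 9.74) below all WT mice (9.92, 9.89 and 9.84), but its limma adjusted p was 0.351. Egln3 (PHD3), itself a HIF target, stood at 0.12 with a wide interval of -0.25 to 0.49. Hif1a, the alpha subunit of HIF-1, was at 0.11 (-0.01 to 0.23) and Epas1, that of HIF-2, at 0.03 (-0.09 to 0.16). EglN1 acts on the stability of these proteins, which an RNA array does not measure.

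HIF target genes were spread around no change. Of 29 tested members, 1 rose (Stc2) and none fell, with a median of 0.005 beside -0.008 over all genes. Vegfa, the main growth factor of vessels, was at 0.01 with an interval of -0.13 to 0.14. The genes for the glycolytic enzymes Pgk1, Aldoa and Ldha were at 0.01, -0.01 and -0.03, and Pdk1, which holds pyruvate out of the mitochondrion, was at 0.06. Bnip3 and Bnip3l, receptors for the removal of mitochondria, were at 0.04 and -0.06. Unadjusted, 4 of the 29 passed a p under 0.05, beside 10.4% of all tested genes. The highest upper bound of a 95% interval among the 29 was that of Stc2 at 0.64, below a 2-fold rise. The farthest value was negative: Pfkfb3, which makes the activator of phosphofructokinase, read 9.31, 9.33 and 9.31 in KO and 9.50, 10.30 and 9.82 in WT mice. Its difference of -0.56 did not pass (SE 0.17, adjusted p = 0.295), and the WT means spread more than the KO means. That average joins 0.03 in soleus, where the WT arrays read 7.71, 9.14 and 7.72, with -1.14 in quadriceps. The quadriceps arrays read 10.35, 10.40 and 10.51 in KO and 11.29, 11.47 and 11.93 in WT mice. Fitted alone, quadriceps called Pfkfb3 (limma adjusted p = 0.0232), while the difference between muscles did not pass (0.713). In this list 5 genes had animal means that did not overlap, a share near the 15.9% of all tested genes. Car9, Car12 and Epo lay below the filter level and were not tested. Apart from Egln1 to Egln3, Hif1a, Epas1, Vegfa, Stc2 and Pfkfb3, the genes of these 2 lists were named after their values were seen.

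**Figure D2:**
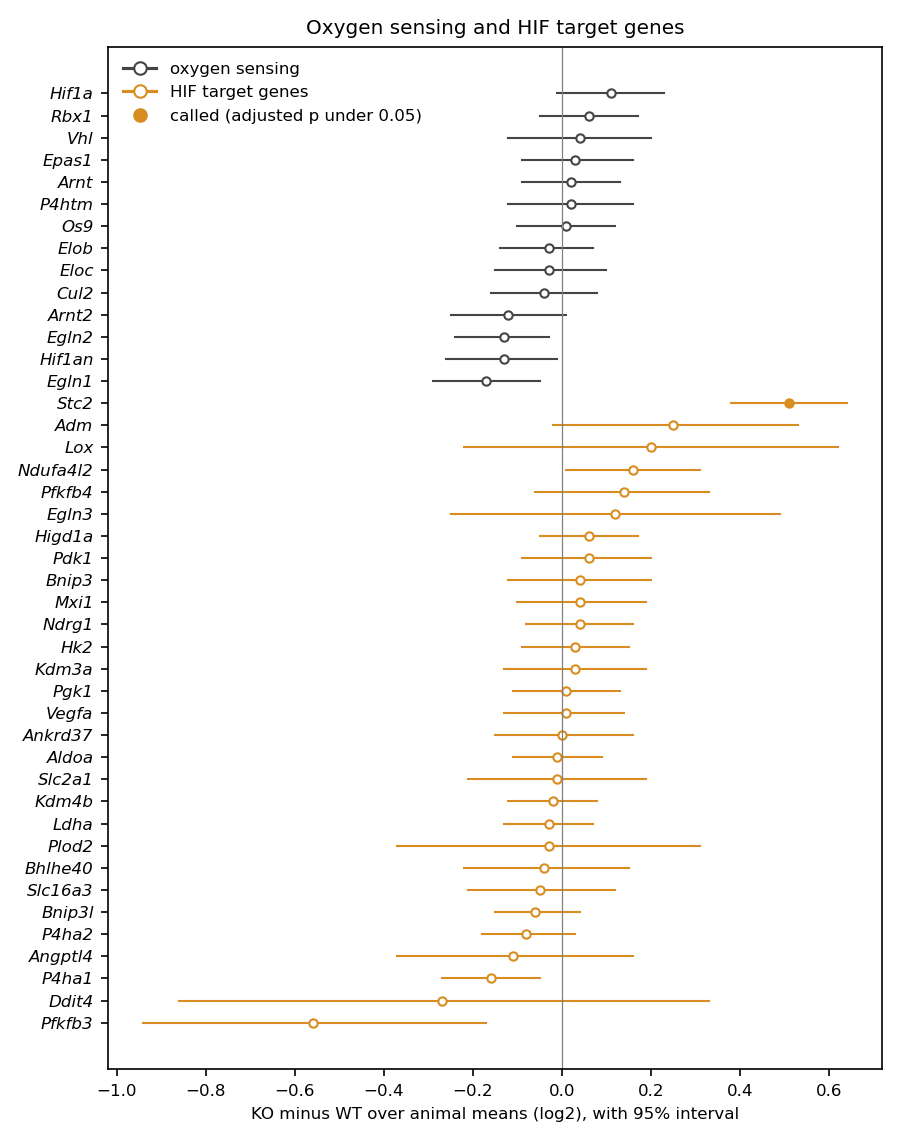
KO minus WT difference over animal means (log2, x axis) with its 95% interval for oxygen-sensing genes (grey) and HIF target genes (orange); the filled point is called. Stc2 at 0.51 is the 1 called gene, and Egln1 at -0.17 and Pfkfb3 at -0.56 are the lowest of their lists; Egln3, a member of both, is drawn once.

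HIF recognises a core of 5 bases, written ACGTG or GCGTG, which was searched on both strands in the RefSeq promoter windows of GRCm38.p6, from 250 bases before to 50 after a gene's start. A window was found for 30 of the 44 called genes, 38 windows in all. The core was in 8 of 17 windows of genes that rose (47.1%) and in 11 of 21 of genes that fell (52.4%). The same share was 59.4% of 13461 windows of tested genes, 43.8% of 32851 windows in all and 80.6% of the windows of tested HIF targets (25 of 31). The cores were thus no more frequent in the called genes than in the tested genes, as a description with no test. CACGTG, the E-box bound by clock and other factors, holds the core ACGTG on each strand and counts in both. The window of Gdpd3 is shown for the largest rise and that of Stc2 for the called HIF target, up to the start site, with each core in capitals (CACGT and CACGC are cores on the opposite strand).
Gdpd3 (chr7:126766164-126766413, + strand): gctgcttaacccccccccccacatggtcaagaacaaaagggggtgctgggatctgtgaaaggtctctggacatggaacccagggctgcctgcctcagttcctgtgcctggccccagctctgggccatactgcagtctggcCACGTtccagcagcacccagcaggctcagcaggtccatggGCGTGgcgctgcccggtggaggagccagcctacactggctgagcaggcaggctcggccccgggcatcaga
Stc2 (chr11:31370062-31370311, - strand): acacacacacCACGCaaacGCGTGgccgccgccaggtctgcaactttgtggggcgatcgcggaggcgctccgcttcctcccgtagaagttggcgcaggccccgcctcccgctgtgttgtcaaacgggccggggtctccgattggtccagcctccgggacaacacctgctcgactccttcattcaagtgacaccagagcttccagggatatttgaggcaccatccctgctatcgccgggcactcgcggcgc
In Gdpd3 the cores begin 110 and 70 bases before the start, and in Stc2 240 and 231 bases before it. A match of letters does not show that HIF binds there.

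Genes of growth hormone signalling and muscle mass held 2 of the falls. Of 19 tested members, 7 passed an unadjusted p under 0.05 in limma, beside 10.4% of all tested genes. Socs2 and Ostn were called lower and none higher, with a list median of -0.044. In this list 6 genes had animal means that did not overlap, beside 15.9% of all tested genes. Cish, another STAT5-induced inhibitor of cytokine signalling, read 7.83, 7.11 and 6.82 in KO and 8.05, 8.57 and 9.08 in WT mice. It had the lowest difference of any tested gene, -1.31, but it did not pass (SE 0.30, limma adjusted p = 0.181). The ubiquitin ligases of muscle atrophy, Fbxo32 and Trim63, were at -0.54 (SE 0.09, adjusted p = 0.072) and -0.58 (SE 0.11, adjusted p = 0.101). Igfbp5, which binds insulin-like growth factors, was at -0.42 (adjusted p = 0.173). Their KO and WT mice did not overlap. From 12 arrays with animal as a random block, Cish (adjusted p = 0.0433), Fbxo32 (0.0457) and Trim63 (0.0496) were called. Fbxo32 and Trim63 were also called with estimated weights (0.00602 and 0.0133), and Fbxo32 without KO animal 3 (0.00783). Mstn, the brake on muscle growth, was at 0.38 (adjusted p = 0.684) and Ghr, the growth hormone receptor, at 0.02 (0.931). Cish, Fbxo32, Trim63, Igfbp5, Mstn and Ghr were named after their values were seen.

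Clock genes often separated the groups without passing the test. Of 17 tested members 0 were called by limma. An unadjusted p under 0.05 was reached by 11, beside 10.4% of all genes. In 8 the animal means did not overlap, beside 15.9% of all genes. The list median was 0.153. Arntl, the activator BMAL1, read 7.24, 6.96 and 7.57 in KO and 8.34, 7.85 and 8.20 in WT mice (difference -0.87, SE 0.16, adjusted p = 0.1). Its partner Clock was at -0.26 (adjusted p = 0.267) and its repressor Nr1d1 at -0.23 (adjusted p = 0.0902). Dbp, an output factor that BMAL1 drives, was at 0.43 (KO 11.05, 11.04 and 10.83; WT 10.42, 10.68 and 10.55; adjusted p = 0.12), and Per3 and Per2, of the repressing arm, were at 0.34 and 0.31 (adjusted p = 0.202 and 0.31). Whether they passed depended on the setting. Arntl and Dbp were called in 4 of 20 alternatives each: from 12 arrays with animal as a random block (adjusted p = 0.00963 and 0.0142), without the arrays farthest in fibre markers (0.00974 and 0.0162), with estimated weights (0.00813 and 0.0105) and without KO animal 3 (0.0252 and 0.041). Nr1d1 was called in 2 (0.0271 with a trended and robust prior, 0.0167 with weights) and Clock in 1 (0.0325 with weights). The time of day at which tissues were taken was not stated in the labels. All clock genes but Arntl were named after their values were seen.

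Immediate early and heat shock genes had the lowest list median, -0.099. Of 16 tested members, 8 passed an unadjusted p under 0.05 in limma, beside 10.4% of all tested genes. Hsph1 was called lower, none was called higher and 8 had animal means that did not overlap, beside 15.9% of all tested genes. A pair of chaperones that act with it was also lower in every KO mouse without passing: Hsp90aa1 at -0.25 (limma adjusted p = 0.12) and the HSP40 gene Dnajb1 at -0.32 (adjusted p = 0.125). Fos read 6.62, 6.70 and 6.90 in KO and 7.38, 7.84 and 7.17 in WT mice (-0.72, adjusted p = 0.158), whereas Jun and Egr1 both stood at 0.01. With estimated weights Hsp90aa1, Dnajb1 and Fos were called (adjusted p = 0.0143, 0.013 and 0.024), and Dnajb1 also without KO animal 3 (0.0483). Apart from Hsph1 these were named after their values were seen.

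Fuel metabolism showed few differences. None of 18 glycolysis, 14 glycogen, 20 TCA cycle, 22 oxidative phosphorylation or 22 fatty acid genes was called by limma. At an unadjusted p under 0.05, 2, 1, 1, 0 and 2 of them passed, beside 10.4% of all tested genes. Their medians were -0.008, -0.012, 0.015, 0.009 and 0.068, and 17 of the 22 fatty acid genes were above 0. The farthest members were Pfkfb3 for glycolysis, the glycogen branching enzyme Gbe1 (0.18, adjusted p = 0.444), Sucla2 of the TCA cycle (-0.16, 0.464), the complex I subunit Ndufv2 (0.07, 0.657) and the uncoupling protein Ucp3 (-0.20, 0.716). The regulators of mitochondrial and fat metabolism (PGC-1, PPAR and ERR, 13 genes) had a median of -0.011 and no call, with Ppara at 0.20 (adjusted p = 0.439). Tryptophan, kynurenine and transamination genes had a median of 0.028 and no call among 11, with the amino acid transporter Slc7a5 at 0.27 (adjusted p = 0.292). Iron and haem genes had a median of 0.001.

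No fibre type gene was called, and Myh4 varied widely among the WT mice. The slow fibre list (12 genes) and the fast fibre list (14 genes) had medians of 0.097 and 0.007 and no call. In them 2 and 1 genes passed an unadjusted p under 0.05, beside 10.4% of all tested genes. Myoz2, found at the Z-disc of slow fibres, was at 0.52 (limma adjusted p = 0.362). Myh4, the myosin of the fastest fibres, read 13.31, 13.30 and 13.39 in KO and 12.45, 13.64 and 11.53 in WT mice, a difference of 0.79 with an interval from -0.19 to 1.78. Its low WT values came from soleus, where the WT arrays read 10.90, 13.31 and 8.99. Myogenic and regeneration genes had a median of -0.002 with none of 13 called (Myf5 at 0.24, adjusted p = 0.315). The 12 defining genes of skeletal muscle had a median of 0.001 and no call, with Myod1 at 0.13 (adjusted p = 0.737).

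The lists for other cell types and the interferon list held no called gene. Medians were 0.08 for 13 endothelial, 0.065 for 11 smooth muscle and pericyte, 0.064 for 11 fibroblast and matrix, 0.029 for 12 leukocyte, 0.027 for 3 erythroid, -0.026 for 5 nerve and Schwann cell and -0.017 for 11 interferon response genes. Adipocyte markers had the highest list median, 0.249 over 7 genes, none below 0, with Cidec at 0.46 (limma adjusted p = 0.305, or 0.0352 with estimated weights). Acute phase genes followed at 0.156 and glycerophosphodiesterases stood at 0.038. The farthest members of the others were Aqp1 (0.27), Kcnj8 (0.24), Postn (0.32), Mrc1 (0.13), Slc4a1 (0.12), Pmp22 (0.10) and Ifit3 (0.23), with adjusted p from 0.273 to 0.856 (Kcnj8 at 0.0385 with estimated weights). In all, the 27 lists held 422 genes, of which 388 had a probe set and 362 were tested.

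**Figure D3:**
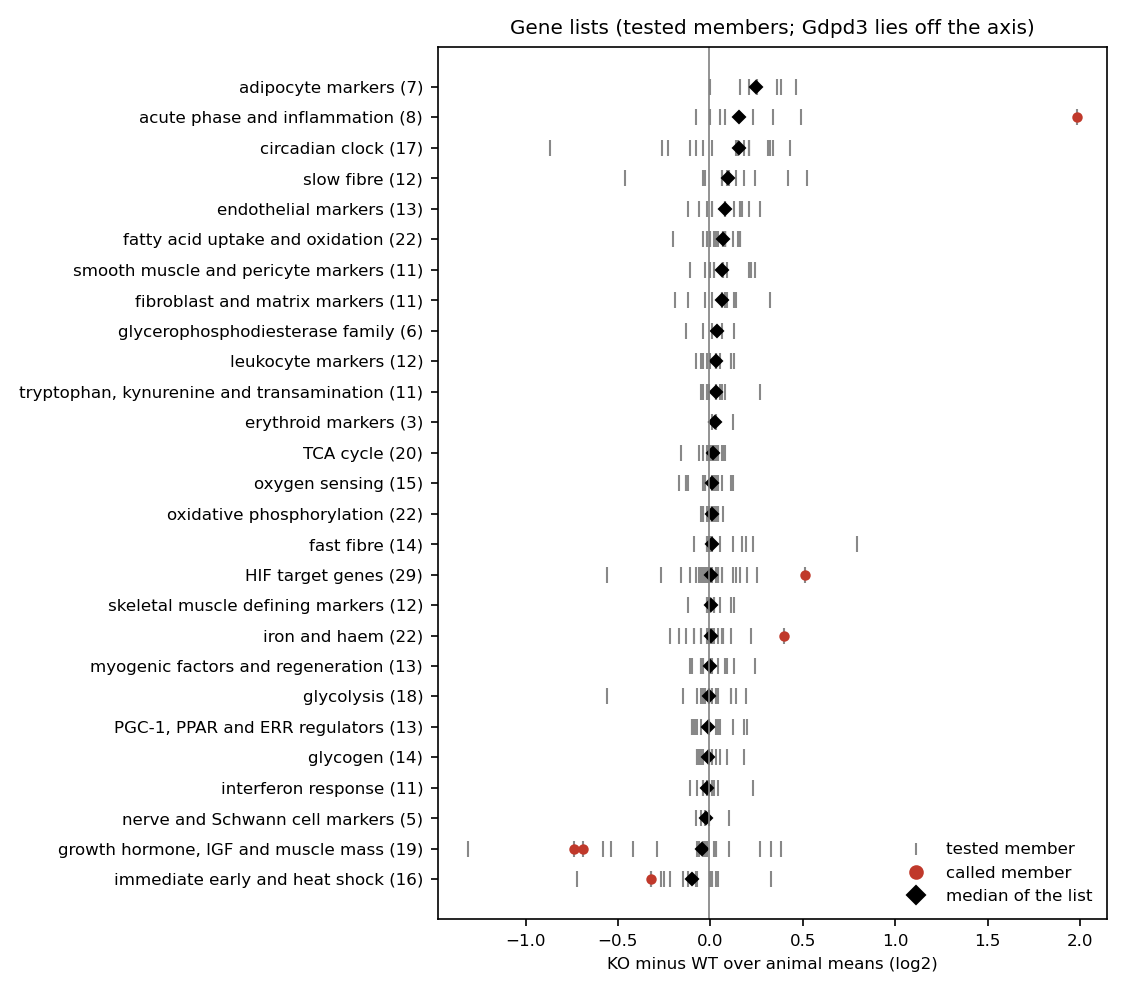
KO minus WT difference over animal means (log2, x axis) of each tested member of 27 gene lists (grey ticks), with the list median (black diamond) and called members (red); the number tested is in parentheses. Most medians lie near 0, between -0.099 for immediate early and heat shock genes and 0.249 for adipocyte markers, and called members are single genes or a pair.

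Both muscles were set side by side for the called genes. All 44 had the same sign in both muscles, and for 42 the KO and WT arrays did not overlap in either muscle. As the genes were called on the mean of these same muscles, the choice favours such agreement, which is therefore no separate support. Of all tested genes, 2.81% had arrays apart in both muscles in 1 direction. Fitted alone, soleus called 8 genes and quadriceps 25, of which 7 and 20 were among the 44, and 22 of the 44 were called in neither muscle alone. Abcb10, Serinc2, Stc2, Def8 and Clmn had the smallest p among these 22. Of these 5, Serinc2 differed least between muscles, at -0.41 in soleus and -0.43 in quadriceps, and Abcb10 and Clmn stood at 0.42 and 0.40 in soleus and 0.38 and 0.35 in quadriceps. The change was larger in quadriceps for 26 of the 44 genes and in soleus for 18.

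The exceptions were Polk and Stc2, whose arrays overlapped in soleus. Polk read 6.94, 7.03 and 6.80 in KO and 7.20, 7.05 and 6.92 in WT soleus. In quadriceps it read 7.98, 7.78 and 8.06 against 9.06, 8.81 and 8.92. The average over both muscles therefore joins a difference of -0.13 with one of -0.99. Stc2 read 7.53, 7.80 and 7.87 in KO and 7.51, 7.58 and 7.37 in WT soleus, and 8.94, 8.50 and 8.44 against 7.88, 7.88 and 7.78 in quadriceps, so that 0.25 is averaged with 0.78. A test of the difference between muscles called 0 of 13319 genes (limma), while 834 passed an unadjusted p under 0.05 (6.26%). Of the 44 called genes, 16 were among those 834. Abhd1 (1.77 in soleus and 1.17 in quadriceps) and Lrch1 (0.81 and 0.24) differed between muscles by more than Stc2, though their arrays did not overlap in either. The adjusted p of the difference was 0.226 for Polk, 0.725 for Stc2, 0.226 for Abhd1 and 0.541 for Lrch1. A difference between the muscles was therefore not shown at this number of mice.

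**Figure D4:**
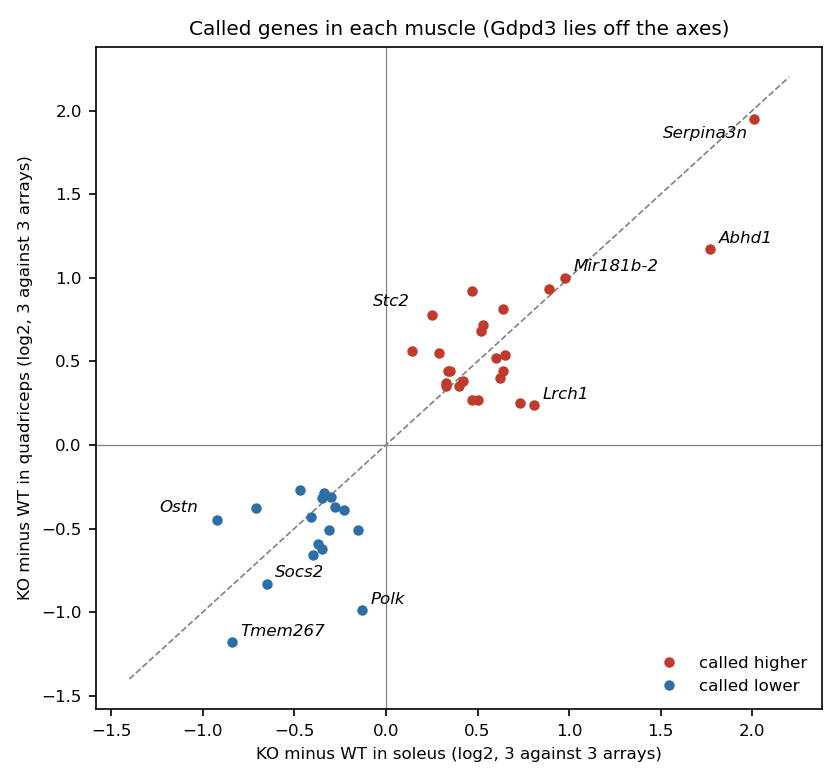
KO minus WT difference in soleus (x axis) against quadriceps (y axis), log2, each from 3 against 3 arrays, for 42 called genes; the dashed line marks equal change and Gdpd3 (4.01 and 3.59) lies off the axes. All points share their sign in both muscles, which calling genes on the mean of both favours. Polk (-0.13 and -0.99) and Stc2 (0.25 and 0.78) are far from equal, and so are Abhd1 (1.77 and 1.17) and Lrch1 (0.81 and 0.24).

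Some called genes lay close together on the genome. Of 43 called genes with a position in RefSeq, 14 had another called gene within 10 tested genes, as did 5.36% of all tested genes. The neighbours reported here were Rb1, Esd and Lrch1 on chromosome 14, Ppwd1 and Mast4 on chromosome 13, Serpina3n and Clmn on chromosome 12, Abhd1 and Atraid on chromosome 5, Def8 and Abcb10 on chromosome 8, and Mir181a-2 and Mir181b-2 on chromosome 2. Of 457 tested genes on chromosome 13, 6 were called (1.31%), and of 459 on chromosome 14, 5 (1.09%). Egln1 lies on chromosome 8, where Abcb10, Def8 and Trappc2l lay 16, 26 and 45 tested genes from it on the same side. The changes had opposite signs in Esd against Rb1 and Lrch1, Abhd1 and Atraid, Ppwd1 and Mast4, and Def8 and Abcb10. They had the same sign in Rb1 and Lrch1, Serpina3n and Clmn, and Mir181a-2 and Mir181b-2. As every KO mouse carries the floxed allele with the DNA around it, and the number of backcrosses is not given, an effect of losing EglN1 and one of DNA carried along with the allele cannot be told apart in this design.

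**Figure D5:**
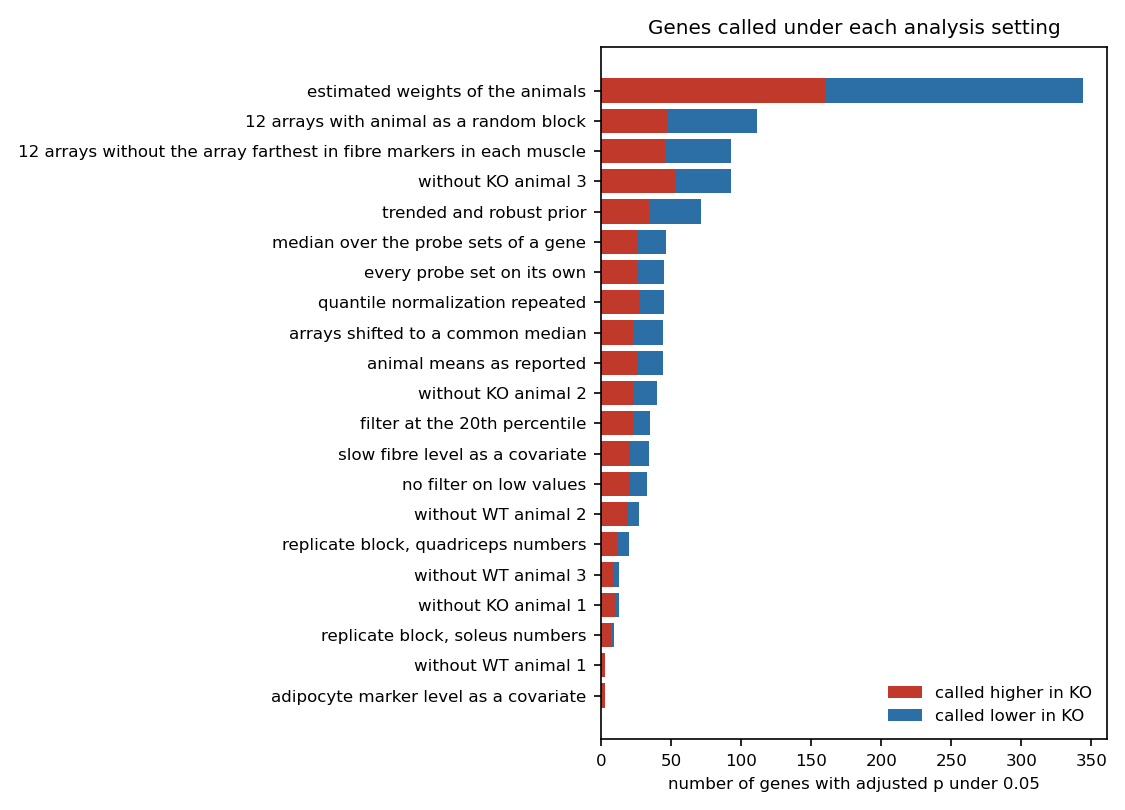
Number of genes called at adjusted p under 0.05 (x axis) under each analysis setting, split into higher (red) and lower (blue) in KO. The count is 44 for the animal means as reported and lies between 3, without WT animal 1 or with the adipocyte covariate, and 344 with estimated weights of the animals.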

How the data were processed

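The deposited values were log2 expression made by the authors with RMA (robust multi-array average), per the submitters' processing notes. RMA subtracts background, normalizes arrays by quantiles and combines the probes of a probe set. Its version, and which arrays entered it, are not given in the sources. Quantile normalization hides a shift of most genes in 1 direction. The platform annotation gave 1 gene for 21789 of 35556 probe sets, several for 1621 and none for 12146. For 21698 of the probe sets with 1 gene, the gene ID was found in RefSeq tables and the symbol given there was used. The brightest probe set stood for each of 19938 genes, and genes with a mean under the 40th percentile of all probe sets (6.19) were left out. No columns were identical.

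Both muscles of an animal were averaged and the 6 values fitted in limma 3.58.1 (R 4.3.3; lmFit, eBayes), KO minus WT, with Benjamini-Hochberg adjustment over 13319 genes. With 3 against 3, the smallest exact p is 0.1, so calls rest on limma's pooled variance. The fit was also run on simulated data with known changes, which checks the code and not the calls made here. Labels number the mice as biological replicates, and animals are numbered here as the soleus samples are. Residuals of the 2 muscles of an animal correlated at r from -0.001 to 0.378.

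Members and lists were chosen with earlier results of these data known. Named were the called genes ranked 1 to 12 by rise and by fall, called microRNA genes, Egln1, Egln2, Egln3, Hif1a, Epas1 and Vegfa, up to 4 called or else 1 leading member per list, and 5 genes called in neither muscle alone. The other called genes, and the order by role, were chosen after their values were seen. Alternatives were other filters, probe set rules, normalization, variance models, weights, covariates, blocks and leaving out each animal. One called gene is not reported here.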

Additional observations from a re-analysis of the deposited data

How the results depend on the processing

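The count of 44 (26 higher, 18 lower) stayed within 1.5 times with no filter (33) or a lower one (35), the median over probe sets (46), every probe set on its own (45), quantile normalization repeated (45), a common median (44) and the slow fibre level as a covariate (34). It was 71 (35 and 36) with a trended and robust prior, 344 (160 and 184) with estimated weights, 111 (47 and 64) from 12 arrays with animal as a random block, 93 (46 and 47) without the array farthest in fibre markers in each muscle, and 82 (41 and 41) at adjusted p under 0.1. With the adipocyte level as a covariate, an alternative chosen after seeing the data, it was 3 (3 and 0). Leaving out 1 animal gave 3 to 93 (3 to 53 higher, 0 to 40 lower). With the replicate number as a block it was 9 (7 and 2) by soleus numbers and 20 (12 and 8) by quadriceps numbers. Same-numbered KO and WT animals correlated at r from -0.004 to 0.155 and from -0.129 to 0.051. Even the 2 muscles of 1 animal correlated at only -0.001 to 0.378. These values therefore cannot show whether the numbers pair animals. No called gene reversed, but many of these settings could not reverse one. They leave the difference unchanged, or drop 1 animal from groups that do not overlap. Of 513 list medians, 28 moved by over 1 SD. Without the farthest arrays, medians were 0.016 for glycolysis, 0.028 for glycogen and -0.075 for myogenic genes. With weights they were 0.037 for fast fibre, -0.06 for myogenic, 0.497 for adipocyte and 0.014 for skeletal muscle genes. With the adipocyte covariate they were -0.012 for oxidative phosphorylation, 0.023 for fatty acid, -0.074 for PGC-1, 0.096 for myogenic, -0.162 for immediate early, 0.189 for erythroid, 0.002 for adipocyte and -0.063 for nerve genes. Leaving out 1 animal gave -0.033 to 0.015 for oxygen sensing, -0.015 to 0.037 for HIF targets, -0.004 to 0.024 for oxidative phosphorylation, 0.004 to 0.04 for fast fibre, -0.047 to 0.047 for myogenic, -0.185 to -0.056 for immediate early, 0.071 to 0.287 for acute phase, -0.053 to 0.059 for interferon, 0.01 to 0.19 for erythroid and -0.005 to 0.016 for skeletal muscle genes. The cause of these shifts was not tested.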

Other observations

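Of 5759 probe sets above the same level that have no gene in the tables used here, 3 were called higher and 0 lower in KO by limma (0.0521%), and 542 passed an unadjusted p under 0.05. Their IDs pair with no gene name in these tables, so they are given as a count.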
